A study of Mus musculus with 24 samples.

Results

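The effect of a Tet1 knockout on undifferentiated mouse embryonic stem cells (ESCs) was examined in 6 of the 24 RNA-seq libraries of the study, chosen by their labels. They were 3 *Tet1*-/- clones (2.1, 2.3 and 2.4) and 3 WT clones (O4.1, O4.2 and O4.13), all at D0, that is, before LIF was withdrawn. LIF is the cytokine that holds mouse ESCs undifferentiated. Both groups descend from 1 clone of a 129/SVj ESC line with eGFP knocked into *Pou5f1*, and were grown on gelatin without feeder cells. The knockout clones were made by transient transfection of Cas9 with a *Tet1* guide, puromycin selection and isolation of single clones. Each replicate is therefore a separately isolated clone of 1 parental line, and p-values measure the spread between clones. The libraries held 24045585 to 26314545 counts, and no pair of libraries within a group agreed within counting noise (chi-square per gene 10.1 to 29.8).

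TET1 is a dioxygenase that oxidises 5-methylcytosine, the first step of active DNA demethylation, and it is abundant in ESCs. It binds CpG-rich promoters and also works with the SIN3A corepressor complex. Genes known to depend on promoter methylation, such as germline genes, and genes of the lineages that ESCs can enter are therefore often followed in Tet mutants.

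The site of the guide is where the groups were made to differ. The edited alleles of each clone were not analysed here, so whether they shift the reading frame was not checked. The guide, taken from the study's supplementary list, and its target with the PAM in capitals are:
guide: ggctgctgtcagggagctca
target: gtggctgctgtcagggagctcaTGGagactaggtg
In mm9 the target lies on the minus strand of chromosome 10, from 62296283 to 62296317. The guide matches a 91-base coding exon (62296286 to 62296376) in 3 of the 7 annotated *Tet1* transcripts, as exon 4 in 2 of them and exon 5 in 1. *Tet1* itself spans 62267318 to 62361866. The guide lies within that exon, while the counts sum reads over the whole transcript, so the *Tet1* counts do not read the edit directly.

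*Tet1* RNA was still present in every knockout clone. Its level, as CPM (counts scaled to the library total after TMM normalization), was 412, 212 and 353 in WT O4.1, O4.2 and O4.13. It was 88.7, 118 and 339 in *Tet1*-/- 2.1, 2.3 and 2.4. Clones 2.1 and 2.3 lay below every WT clone, whereas clone 2.4 lay within the WT range, so the groups overlapped (log2 fold change -0.84, SE 0.386, edgeR adjusted p = 0.261). Without clone 2.4 the log2 fold change of *Tet1* was -1.66 (edgeR adjusted p = 0.0235), and without any other 1 library it was -1.08 to -0.51 (edgeR adjusted p from 0.0785 to 0.583). The RNA level therefore does not check the label of clone 2.4. The study also typed its knockout lines by sequencing the edited alleles and by protein blot, which were not analysed here. *Tet2* (0.04) and *Tet3* (0.03), which encode the other TET dioxygenases, had log2 fold changes near 0. *Sin3a*, the scaffold of the corepressor, read 270, 246 and 249 CPM in WT and 188, 214 and 198 CPM in *Tet1*-/-. Its groups did not overlap, and it fell (log2 -0.35, edgeR adjusted p = 0.0425).

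**Figure D1:**
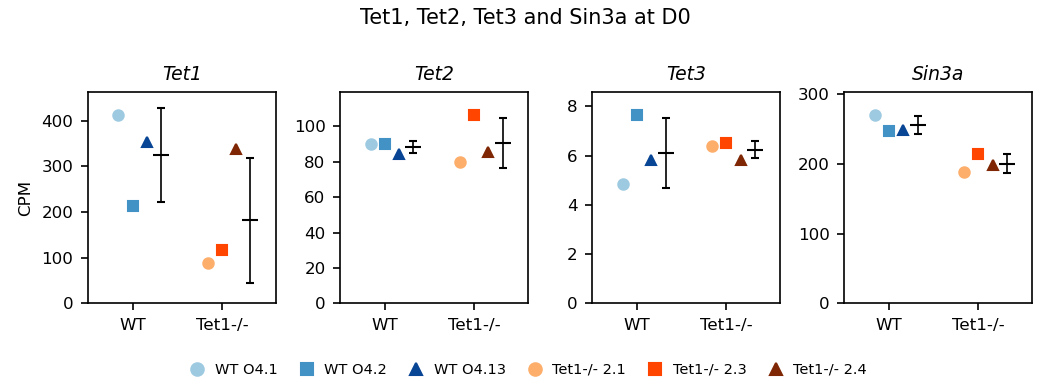
CPM of *Tet1*, *Tet2*, *Tet3* and *Sin3a* (vertical axes, linear from 0) in each WT and *Tet1*-/- clone at D0; points are clones, bars the mean ± SD (n = 3). Clone 2.4 has 339 CPM of *Tet1*, inside the WT range, while all 3 knockout clones lie below WT for *Sin3a*.

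Few genes were called between the genotypes. Of 13885 genes tested, 41 were called higher in *Tet1*-/- (0.295% of genes tested) and 34 lower (0.245%), where called means an edgeR adjusted p under 0.05 and more than a 2-fold change. With the adjusted p alone, 137 rose (0.987%) and 139 fell (1.00%), and "passed the test" below has this meaning. At unadjusted p under 0.05 (edgeR) there were 2634 of the 13885 genes, in either direction. The small number called therefore does not show that few genes differ. All 41 genes called higher, and 33 of the 34 called lower, had groups that did not overlap. Over all genes tested, 11.8% did not overlap and were higher and 11.9% did not overlap and were lower. Of the genes called higher, 18 had a WT mean under 1 CPM, and of those called lower 15 had a *Tet1*-/- mean under 1 CPM, where a count of 3 is worth 0.114 to 0.125 CPM. In bulk RNA, fewer cells expressing a gene and less RNA per cell cannot be told apart.

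These calls depended on which libraries entered the fit. When all 12 D0 libraries of the 5 genotypes entered 1 fit, 0 genes were called higher and 1 lower (edgeR; 1828 genes at unadjusted p under 0.05). The common biological coefficient of variation was 0.104 in the 6 libraries and 0.14 in the 12, and it was 0.299 between the clones of TKO (*Tet1*-/-:*Tet2*-/-:*Tet3*-/-) alone. Leaving out clone 2.3 left 9 genes called higher and 2 lower, and leaving out clone 2.4 left 10 and 7. Without WT O4.1 the counts were 14 and 36, without O4.13 they were 15 and 15, and without O4.2 they were 73 and 65. Without clone 2.1 they were 29 and 27. The genes called in all 6 of these fits were *Bin1*, *Cachd1*, *Fam84b*, *Lphn2*, *Sall2* and *Wt1* on the higher side and *Klk8* and *Smc1b* on the lower side. *Smc1b* was the gene still called with 12 libraries (edgeR adjusted p = 0.029).

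**Figure D2:**
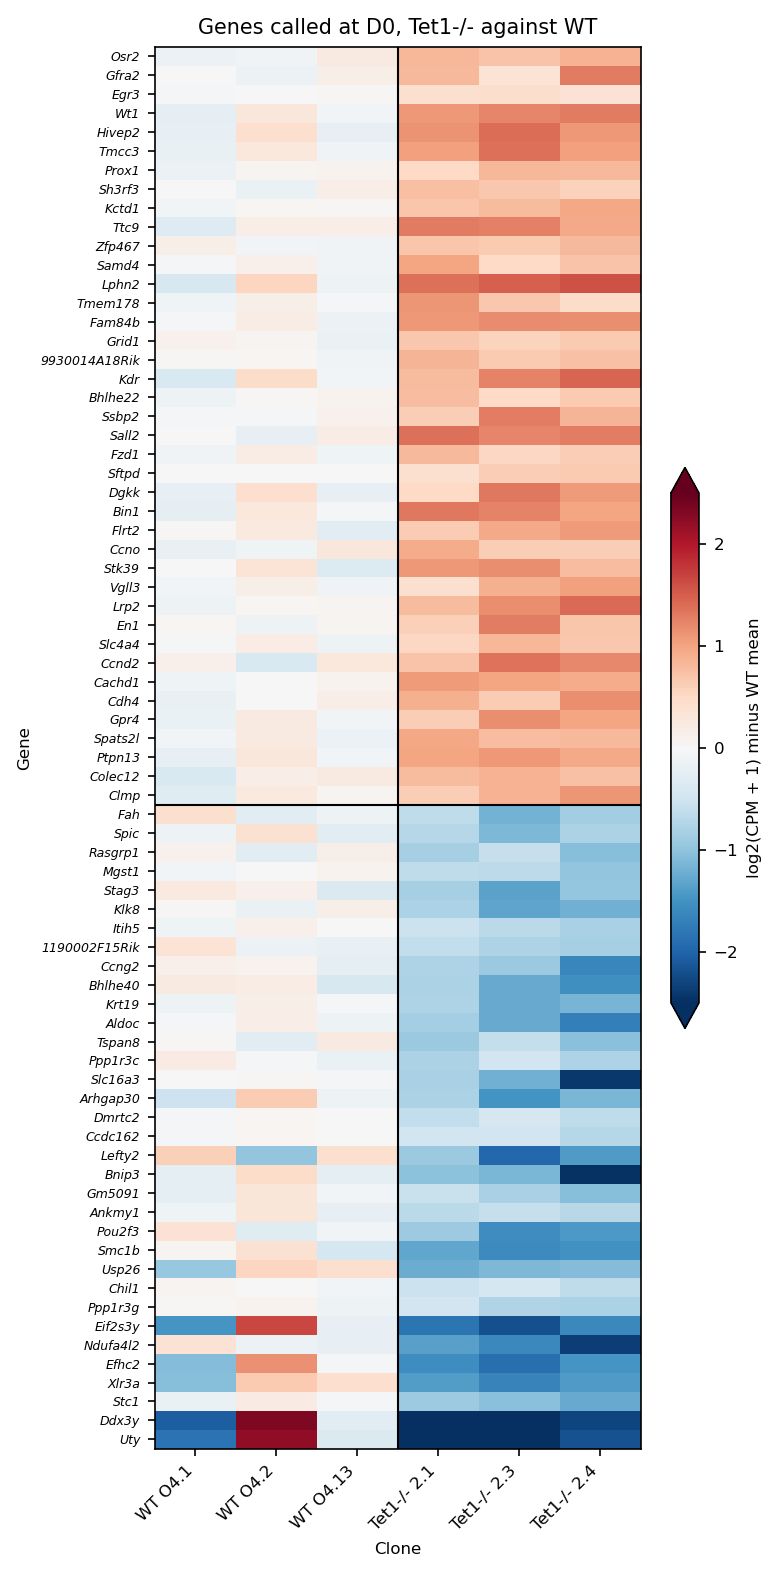
Level of 74 of the 75 called genes (rows, ordered by fitted log2 fold change) in the 6 D0 clones (columns), as log2(CPM + 1) minus the WT mean; colours are clipped at ±2.5. The 40 genes above the line are higher in all 3 knockout clones, and the Y-linked genes at the bottom differ widely between the WT clones.

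*Sall2*, a spalt-family zinc finger transcription factor on chromosome 14 (52930847 to 52948437), had the smallest p of the genes called higher. Its level was 9.17, 7.81 and 10.6 CPM in WT and 25.2, 22.7 and 23.6 CPM in *Tet1*-/-. The knockout clones lay close together and more than 2-fold above each WT clone (log2 1.38, SE 0.130, edgeR adjusted p = 0.00184). In the 12-library fit the adjusted p of *Sall2* was 0.0673. *Wt1*, a zinc finger factor of the kidney and gonad, went from 0.464, 1.07 and 0.622 CPM to 2.61, 2.96 and 3.21 CPM (log2 2.02, SE 0.286). Its levels were low in both groups but did not overlap. Other transcription factors called higher included *Prox1* (log2 1.74) and *En1* (1.15), both homeobox genes, *Hivep2* (1.96), and *Osr2* (fitted log2 2.72). *Osr2* read 0.0387, 0.0793 and 0.332 CPM in WT, that is 1, 2 and 8 counts, and 0.885 to 1.08 CPM in the knockout. Its call was kept in 2 of the 6 fits without 1 library, and DESeq2 gave it no adjusted p.

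*Lphn2*, an adhesion G protein-coupled receptor, read 6.42, 13.2 and 8.04 CPM in WT and 24.7, 26.6 and 28.8 CPM in *Tet1*-/- (log2 1.53, edgeR adjusted p = 0.00619). *Lrp2*, the endocytic receptor megalin, read 32, 36.3 and 36.5 CPM against 61.0, 79.0 and 94.8 CPM (log2 1.16, edgeR adjusted p = 0.00404). Both receptors were higher in every knockout clone than in any WT clone. *Kdr*, the VEGF receptor of early mesoderm and endothelium, was called higher (1.47, 3.41 and 2.07 against 4.61, 6.65 and 7.84 CPM; log2 1.45), as were *Gfra2*, a receptor for GDNF-family ligands (2.22), the Wnt receptor *Fzd1* (1.31) and R-cadherin *Cdh4* (1.10). *Bin1*, which shapes membranes, read 9.44, 13.9 and 11.1 CPM in WT and 29.8, 28.1 and 23.6 CPM in the knockout (log2 1.24). *Fam84b* (1.52), *Cachd1* (1.13) and the cell cycle gene *Ccnd2* (1.13) were also called higher.

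**Figure D3:**
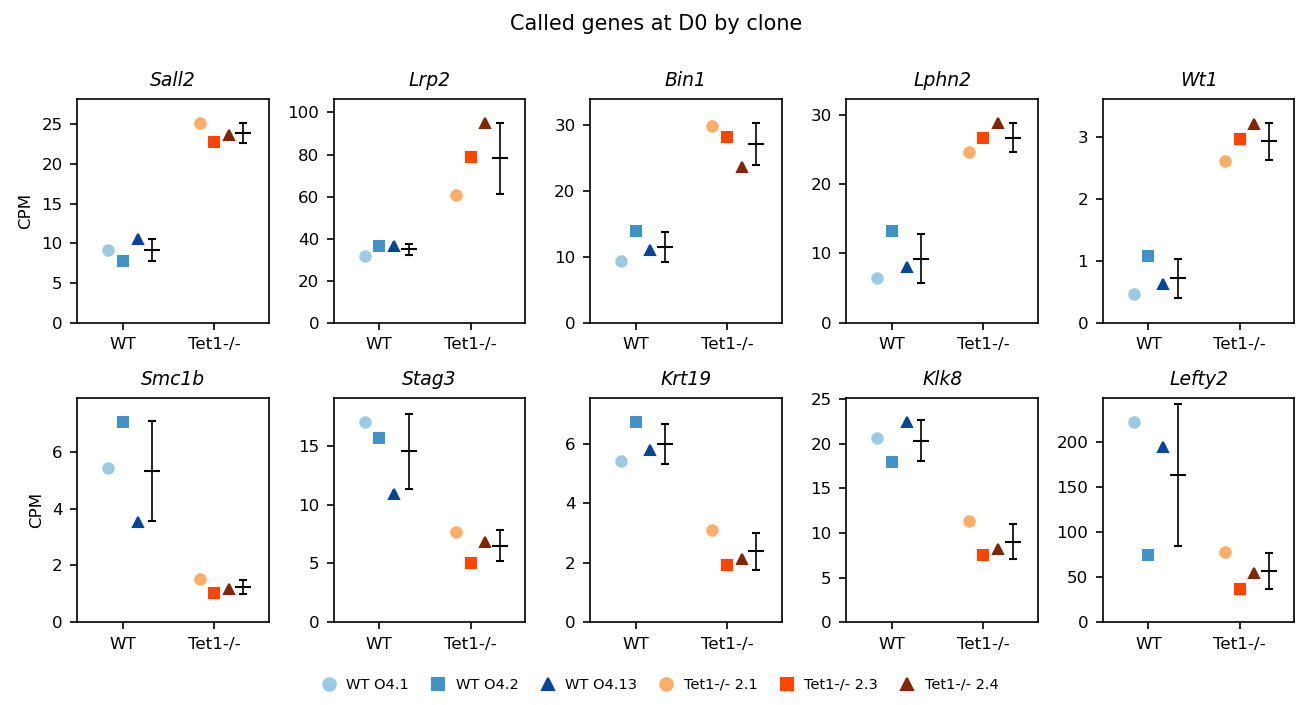
CPM (vertical axes, linear from 0) of 10 called genes in each clone at D0, with the mean ± SD (n = 3). *Sall2*, *Lrp2*, *Bin1*, *Lphn2* and *Wt1* are higher in all knockout clones; *Smc1b*, *Stag3*, *Krt19* and *Klk8* are lower in all of them, while WT O4.2 overlaps the knockout for *Lefty2*.

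Of 16 Wnt targets and TCF factors, 3 rose (*Notum*, 0.86; *Myc*, 0.45; *Ccnd1*, 0.40). *Notum*, a secreted Wnt inhibitor, read 17.4, 19.8 and 24.8 CPM in WT and 37.4, 39.0 and 36.5 CPM in the knockout. In the primitive streak and mesoderm list 2 of 13 rose, *Kdr* and the T-box factor *Eomes* (0.67), and in the neuroectoderm list 3 of 11 rose (*En1*; *En2*, 0.76; *Gbx2*, 0.56). Of the 16 Wnt genes 6, of the 13 primitive streak and mesoderm genes 3, and of the 11 neuroectoderm genes 4, had a negative log2 fold change. The medians of these 3 lists were 0.13, 0.31 and 0.14, beside 0.003 for all genes tested, and with 12 libraries no member passed.

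Genes for 2 meiotic cohesin subunits fell. *Smc1b*, the meiosis-specific SMC1 subunit (chromosome 15, 84895121 to 84962387), read 5.42, 7.05 and 3.52 CPM in WT and 1.51, 1.04 and 1.17 CPM in *Tet1*-/- (log2 -2.10, SE 0.272, edgeR adjusted p = 0.0054). *Stag3*, its meiotic partner subunit (chromosome 5, 138721468 to 138753621), read 17, 15.7 and 10.9 CPM against 7.63, 5.04 and 6.84 CPM (log2 -1.16, SE 0.191, edgeR adjusted p = 0.0171). For both genes each knockout clone lay below each WT clone. Of the other meiotic cohesin genes, *Rec8* did not pass with edgeR, at 9.88 ± 0.920 CPM in WT and 6.70 ± 1.05 CPM in the knockout (SD, n = 3; log2 -0.56, edgeR adjusted p = 0.0801), although it passed with DESeq2 (adjusted p = 0.0322), and *Rad21l* was too low to test. The third germline gene that fell, *Xlr3a*, belongs to an X-linked multigene family, so reads may be shared. It had 0.929, 5.31 and 4.35 CPM in WT and 0.529, 0.269 and 0.500 CPM in the knockout. These were 3 of 31 germline genes tested; DESeq2 passed 5 lower and limma voom 2, and *Xlr3a* did not pass with voom (adjusted p = 0.0806). With these 3 tools 0 rose. At unadjusted p under 0.05, 6 of the 31 were lower and 1 higher, beside 2634 of all 13885 genes tested, in either direction. *Dazl* (log2 -0.04, SE 0.239) and *Ddx4* (0.25, SE 0.118), germ cell RNA-binding genes often used as readouts of promoter methylation, did not pass.

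The 250 bases before the start of both cohesin genes are CpG-rich, which is why they are shown, with each CpG in capitals (RefSeq, GRCm38.p6; *Smc1b* chr15:85131958-85132207, minus strand; *Stag3* chr5:138280259-138280508, plus strand).
Smc1b: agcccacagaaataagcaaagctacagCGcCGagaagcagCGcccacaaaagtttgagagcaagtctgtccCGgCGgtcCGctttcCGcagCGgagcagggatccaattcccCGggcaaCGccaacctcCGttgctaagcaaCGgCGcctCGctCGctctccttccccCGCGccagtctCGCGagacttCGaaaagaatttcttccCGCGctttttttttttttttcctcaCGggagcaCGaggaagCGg
Stag3: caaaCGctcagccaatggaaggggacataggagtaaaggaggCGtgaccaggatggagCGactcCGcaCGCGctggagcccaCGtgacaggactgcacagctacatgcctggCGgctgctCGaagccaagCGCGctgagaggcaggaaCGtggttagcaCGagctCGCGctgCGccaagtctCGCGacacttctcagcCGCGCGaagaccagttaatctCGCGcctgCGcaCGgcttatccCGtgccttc
They hold 25 and 26 CpGs, against a median of 16 for the 10349 tested genes with a sequence. The 26 called lower genes with a sequence had a median of 10, so these 2 windows do not describe that set. Methylation was not analysed here.

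The glycolysis and hypoxia response list was written with earlier results of these data known. Of its 31 genes tested, 8 fell and 0 rose (edgeR), beside 1.00% and 0.987% of all genes tested. At unadjusted p under 0.05, 17 were lower and 1 higher, beside 2634 of all 13885 genes, in either direction. Of the 31 genes, 27 had a negative log2 fold change and 4 a positive one, and the median was -0.25. The 8 were the glucose transporter *Slc2a3* (-0.59), the glycolytic enzymes *Pfkl* (-0.59), *Aldoc* (-1.33), *Tpi1* (-0.85) and *Pgk1* (-0.55), and *Bnip3* (-1.57), *Ero1l* (-0.44) and *P4ha2* (-0.84), known hypoxia-induced genes. DESeq2 passed 11 lower and 1 higher, and limma voom 8 lower and 0 higher. The median per clone against the WT mean was -0.10 in 2.1, -0.21 in 2.3 and -0.43 in 2.4, and from -0.08 to 0.08 in the WT clones. The number that fell was 0 with 12 libraries, 0 without clone 2.3, 2 without clone 2.4, 4 without O4.13 and 5 without O4.1, while the median stayed between -0.33 and -0.16.

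*Bnip3*, a mitophagy receptor (chromosome 7, 146082519 to 146101202), read 19, 31.2 and 18.7 CPM in WT and 10.4, 9.50 and 3.21 CPM in *Tet1*-/- (SE 0.321, edgeR adjusted p = 0.0322). Its call was lost with DESeq2 (adjusted p = 0.0628) and kept in 2 of the 6 fits without 1 library. *Aldoc*, an aldolase (chromosome 11, 78136470 to 78141283), read 20.0, 23.2 and 18.7 CPM against 10.9, 8 and 5.63 CPM (SE 0.193, edgeR adjusted p = 0.00966). Clone 2.4 was the lowest for both, and neither gene's groups overlapped. Some called genes outside the list were singled out after their values were seen. The lactate exporter *Slc16a3* read 102, 103 and 99.1 CPM in WT and 57.3, 43.6 and 18.2 CPM in the knockout (log2 -1.35; DESeq2 adjusted p = 0.0585). *Stc1*, *Ndufa4l2*, *Bhlhe40* and *Ccng2*, all known as hypoxia-responsive genes, had log2 fold changes of -3.24, -2.66, -1.31 and -1.19.

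**Figure D4:**
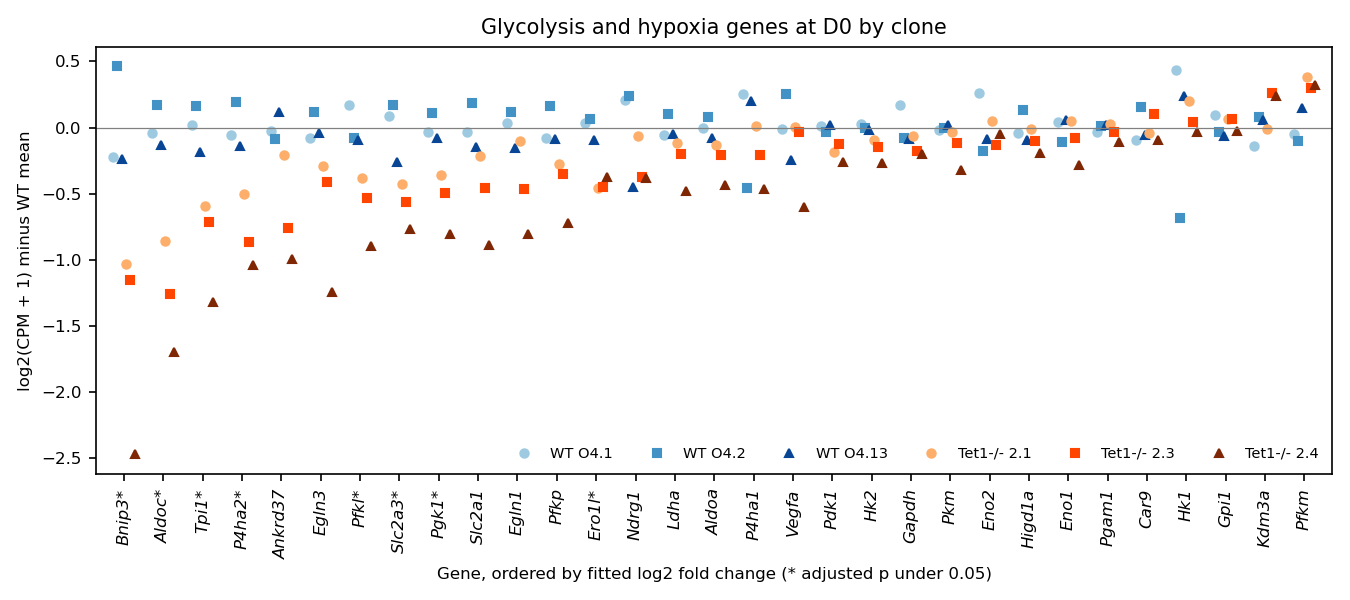
Level of the 31 glycolysis and hypoxia genes in each D0 clone, as log2(CPM + 1) minus the WT mean (vertical axis), ordered by fitted log2 fold change; stars mark the 8 genes with adjusted p under 0.05. Clone 2.4 is the lowest knockout clone for most of the genes on the left, reaching below -2 for *Bnip3*.

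The core motif ACGTG of hypoxia response elements was searched on both strands (as ACGTG or CACGT) in the same 250-base windows. The *Bnip3* window (chr7:138909507-138909756, minus strand, GRCm38.p6) is shown because that gene had the lowest fold change of the list, with matches in capitals:
Bnip3: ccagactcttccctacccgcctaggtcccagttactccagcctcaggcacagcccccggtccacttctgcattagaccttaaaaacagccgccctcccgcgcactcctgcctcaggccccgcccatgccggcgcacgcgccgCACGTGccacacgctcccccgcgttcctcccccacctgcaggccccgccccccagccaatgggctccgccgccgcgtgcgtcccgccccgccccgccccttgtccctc
Its 2 matches overlap in 1 palindrome, and the *Aldoc* window held 0. The motif was in 13 of the 28 list genes with a sequence (46.4%), in 3 of the 6 that passed (*Pgk1*, *Bnip3* and *P4ha2*), and in 22% of all tested genes with one. A match is a match of letters, not a bound site.

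The Nodal antagonists *Lefty2* and *Lefty1*, which are close paralogs and may share reads, were low in the knockout and in WT O4.2. *Lefty2* read 222, 74.3 and 194 CPM in WT and 77.5, 37.3 and 54.5 CPM in *Tet1*-/- (log2 -1.53, edgeR adjusted p = 0.0372). It was called although O4.2 lay below clone 2.1. Its call was kept in 1 of the 6 fits without 1 library, and lost with 12 libraries (edgeR adjusted p = 0.113). *Lefty1* read 60.8, 12.7 and 55.9 CPM against 21.7, 9.62 and 15.4 CPM (log2 -1.47, edgeR adjusted p = 0.0983). Of 18 Nodal and Lefty signalling genes, *Lefty2* was the 1 that passed, and with DESeq2 or limma voom 0 passed in either direction. Without O4.2, the WT clone that overlaps the knockout, *Lefty1* had a log2 fold change of -1.90 (edgeR adjusted p = 9.21e-05). Without any other 1 library it was -1.79 to -1.14 (edgeR adjusted p from 0.115 to 0.321). O4.2 is the clone that disagrees with a fall, so the small p without it is no support for a fall.

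Y-linked genes were called lower but varied among the WT clones. *Ddx3y*, an RNA helicase, read 4.80, 120 and 18.8 CPM in WT O4.1, O4.2 and O4.13, and 2.12, 1.5 and 3.88 CPM in *Tet1*-/-. *Uty*, a histone demethylase homolog, read 1.62, 43.1 and 6.38 CPM against 0.264, 0.346 and 1.08 CPM, and the translation factor *Eif2s3y* 6.31, 63.3 and 16.5 CPM against 4.68, 3.42 and 5.59 CPM. All 3 were highest in O4.2. In the Y chromosome and X inactivation list of 7 genes, limma voom passed 0 in either direction, and DESeq2 passed *Ddx3y* and *Uty* as lower and *Xist* and *Tsix* as higher. The X-linked partners *Ddx3x* (log2 0.14), *Kdm6a* (0.07) and *Eif2s3x* (0.11) did not pass. The X-linked genes *Efhc2* and *Usp26*, also called lower, were lowest among WT in O4.1, as *Xlr3a* was. *Xist*, which overlaps *Tsix* so that their reads cannot be told apart without strand, had a log2 fold change of 0.74 (edgeR adjusted p = 0.0878, DESeq2 adjusted p = 0.0281).

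Among the remaining genes called lower, *Klk8*, a secreted serine protease, read 20.7, 18.0 and 22.4 CPM in WT and 11.3, 7.58 and 8.21 CPM in the knockout (log2 -1.17, SE 0.157, edgeR adjusted p = 0.00619). *Krt19*, a simple-epithelial keratin, read 5.42, 6.74 and 5.80 CPM against 3.1, 1.92 and 2.13 CPM (log2 -1.32). Every knockout clone was below every WT clone for both. *Pou2f3*, a POU-domain transcription factor (-2.00), *Rasgrp1*, a Ras activator (-1.10), *Mgst1*, a glutathione transferase (-1.12), and *Fah*, of tyrosine breakdown (-1.05), were also called lower.

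*Pou5f1*, *Nanog* and *Sox2*, core pluripotency factors, had log2 fold changes near 0. *Pou5f1* read 820, 668 and 815 CPM in WT and 813, 820 and 736 CPM in *Tet1*-/- (log2 0.04, SE 0.0895), *Nanog* had a log2 fold change of -0.04 (SE 0.0795) and *Sox2* 0.02 (SE 0.0785). *Sall4*, another factor of the pluripotency network, read 302, 252 and 303 CPM in WT and 321, 356 and 334 CPM in the knockout. Its groups did not overlap, but it did not pass (log2 0.24, edgeR adjusted p = 0.168). Of 30 core and naive genes, 2 rose by less than 2-fold with edgeR and limma voom, *Gbx2* and *Nr0b1* (0.39). DESeq2 passed 3 as higher, and 0 fell with edgeR, DESeq2 or limma voom. At unadjusted p under 0.05, 7 were higher and 1 lower. The 10 ESC markers summed to 6280 to 6550 CPM in WT and 6390 to 7030 CPM in the knockout. In the formative and primed list *Sall2* rose and *Otx2* fell (-0.49) among 19. *Cdx2* and *T*, markers of trophectoderm and primitive streak, were too low to test, at 0.119 to 0.166 CPM and 0.232 to 0.317 CPM in WT and 0.208 to 0.340 CPM and 0.151 to 0.625 CPM in the knockout.

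Markers of other cell types were at low levels. The 6 fibroblast markers summed to 28.3 to 34.6 CPM in WT and 25.8 to 40.9 CPM in the knockout, nearly all from *Thy1*, with *Postn* at 0. The 4 trophectoderm markers summed to 1.01 to 2.1 and 0.875 to 1.59 CPM, the 5 extraembryonic endoderm markers to 5.98 to 7 and 6.59 to 7 CPM, and the 3 neuroectoderm markers to 2.85 to 5.06 and 4.08 to 5.13 CPM, with *Neurog2* at 0. The 4 mesoderm markers summed to 2.09 to 5.59 and 6.16 to 9.50 CPM, the one set whose groups did not overlap, and *Kdr* was its highest member. The part of mesoderm cells in the level of *Kdr* was not tested.

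Of 17 DNA methyltransferase and reader genes 0 passed with edgeR or limma voom, and 2 rose with DESeq2 (6 higher and 1 lower at unadjusted p under 0.05). The member with the largest increase was *Dnmt3l*, a cofactor of the de novo enzymes (log2 0.34, edgeR adjusted p = 0.055). Of 38 imprinted genes 0 passed with edgeR or limma voom, and 2 fell with DESeq2 (2 higher and 7 lower at unadjusted p under 0.05), with *Sgce* the lowest (-1.03, edgeR adjusted p = 0.0585). Of 24 clustered protocadherins, which share exons and hence reads, 0 passed with any of the 3 tools, 0 reached unadjusted p under 0.05, and 23 were negative (median -0.08). Of 23 cholesterol synthesis genes 0 passed with edgeR or limma voom and 8 fell with DESeq2. Of these 23, 20 had a negative log2 fold change (median -0.19) and 11 were lower at unadjusted p under 0.05. Over all 13885 genes tested, 2634 were at unadjusted p under 0.05, in either direction.

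Whether the knockout effect differed after 6 days without LIF was tested as an interaction over 12 libraries, with the same WT clones and *Tet1*-/- clones 2.1, 2.4 and, in place of 2.3, 2.2. None of 15058 genes was called (0%; edgeR, smallest adjusted p = 0.453, 1208 at unadjusted p under 0.05), and DESeq2 called 17. At D6 0 genes passed for the knockout against WT in this edgeR fit (smallest adjusted p = 0.11, 2557 at unadjusted p under 0.05), and at D0 the same fit called 7. No library was shared between the days, although clones were. Of the genes called higher at D0, 31 of 41 (75.6%) were higher at D6, and of those called lower 30 of 34 (88.2%) were lower, beside 60% of the 13810 genes not called whose direction was the same on both days. Their medians were 1.40 and -1.42 at D0, which chose them, and 0.26 and -0.68 at D6. The whole glycolysis and hypoxia list had a median of -0.23 at D0 in this fit and -0.36 at D6, with 25 of 31 genes (80.6%) in the same direction. Values at D6 were widely spread: *Smc1b* read 2.12, 25.9 and 5.83 CPM in WT O4.1, O4.2 and O4.13 and 1.61, 3.98 and 1.28 CPM in knockout clones 2.1, 2.2 and 2.4 (log2 -2.31, SE 0.712, adjusted p = 0.178). *Sall2* read 76.1, 90.1 and 67.7 CPM against 96.7, 124 and 132 CPM in the same order of clones (log2 0.61). *Lefty2* had the opposite sign (0.63, SE 0.412; interaction edgeR adjusted p = 0.473). *Ddx3y* read 19.3, 88.9 and 43.5 CPM in WT O4.1, O4.2 and O4.13 at D6 and 17.9, 34.8 and 1.99 CPM in knockout clones 2.1, 2.2 and 2.4, so the groups overlapped.

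**Figure D5:**
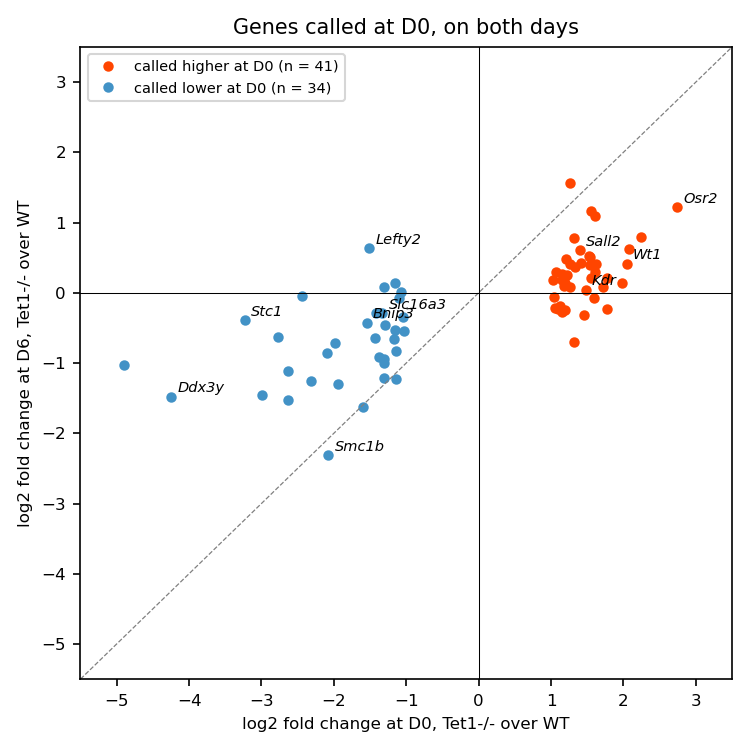
Fitted log2 fold change of *Tet1*-/- over WT at D0 (horizontal) and D6 (vertical) for the 41 genes called higher and the 34 called lower at D0; the dashed line marks equal change. Most genes keep their sign and lie nearer 0 at D6, while *Smc1b* lies by the line and *Lefty2* changes sign.

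The other genotypes, *Tet2*-/- and the 2 that also lack *Tet1* (DKO and TKO), were set beside these values at D0, all against the same 3 WT libraries, so their values are not independent. In the 12-library fit *Smc1b* had log2 fold changes of -2.10 in *Tet1*-/-, -2.66 in *Tet2*-/-, -1.54 in DKO (*Tet1*-/-:*Tet2*-/-) and -1.89 in TKO. *Sall2* had 1.38, -0.56, 1.63 and 1.22 in the same order, *Wt1* 2.02, -1.27, 1.95 and 0.95, and *Klk8* -1.17, -0.48, -1.28 and -1.30. *Bnip3* had -1.57, 0.22, -2.10 and -0.47, and its TKO clones read 30.0 and 2.80 CPM. *Lefty2* had -1.53, 1.03, -1.33 and 0.42.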

How the data were processed

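RNA of 24 ESC libraries was poly(A) selected, sequenced paired-end and, per the authors, mapped to mm9 with STAR 2.5.1; 6 libraries are used for the main comparison. The authors deposited raw counts per RefSeq transcript, not normalized or pooled. The counting program and strand setting are not given unambiguously in the sources used here, so overlapping and antisense genes are uncertain. The tables hold 31928 lines for 22926 symbols; the first line per symbol was used (4911 symbols have more). Spike-in lines numbered 0, so the authors' ERCC scaling was not repeated.

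Counts were tested in R 4.3.3 with edgeR 4.0.16 (TMM, filterByExpr with a minimum count of 10, quasi-likelihood test, Benjamini-Hochberg adjustment); a gene was called where the adjusted p was under 0.05 and log2 fold change beyond 1 in either direction. The 2 groups alone entered the fit because the spread between clones was known to differ between genotypes. Alternatives were DESeq2 1.42.0, limma 3.58.1 voom, other scalings, filters, lines, a replicate block, all 12 D0 libraries, and each library left out. On simulated data at 13719 genes, the D0 comparison recovered 97% of genes changed by 1.5 (log2) and 100% of those changed by 3. It made 4 false calls of 201. The simulated clones varied independently gene by gene, with equal spread in both groups. Changes were planted only in genes above 1 CPM in WT. These rates therefore do not describe calls in lower genes or calls that depend on 1 clone. The 26 gene lists and the genes named were chosen with earlier results of these data known. Named genes were those the study names, called members of a list, up to 12 called genes per direction with the largest non-overlapping change and a mean of at least 1 CPM in the higher group, the 3 smallest p per direction, and the extremes of each list; a few others were named after their values were seen. Gene positions come from GENCODE vM1 (mm9), which placed 12821 of 13885 tested genes, and upstream sequences from RefSeq (GRCm38.p6), which matched 10349.

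Whether equal replicate numbers pair the WT and knockout clones was checked by the correlation of their deviations from the group means (0.236, 0.238 and -0.0124); they were not treated as pairs. Counting error is the limit that depth sets. 1 called gene and the list that holds it are counted in the totals but not reported here.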

Additional observations from a re-analysis of the deposited data

How the results depend on the processing

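The D0 counts changed with the libraries in the fit and with the fold threshold. With all 12 D0 libraries 0 genes were called higher and 1 lower; leaving out 1 library at a time gave 9 to 73 higher and 2 to 65 lower. With no fold threshold the counts were 137 and 139. With no filter 58 were called higher and 61 lower. In that fit *Lefty1* passed (edgeR adjusted p = 0.0181), as did 11 glycolysis and hypoxia genes on the lower side and 0 on the higher. With the replicate block, entered although the numbers were not shown to pair the clones, 56 and 70 were called, including all 41 and all 34 of the main calls; WT clone O4.13 did not correlate best with its own number, and under the block *Tet1* (log2 -1.03, edgeR adjusted p = 0.0401) and *Lefty1* (-1.30, edgeR adjusted p = 0.00274) passed, as did 14 glycolysis and hypoxia genes on the lower side and 1 on the higher. DESeq2 called 41 and 37, keeping 38 and 25 and giving no adjusted p for 2 and 4; limma voom 37 and 26; other scalings and filters, and summed lines, 32 to 43 and 24 to 38. The interaction called 17 genes with DESeq2, and 0 to 1 when 1 library was left out, 1 without WT D0 O4.2 and 1 without *Tet1*-/- D6 replicate 2. Among 35 called named genes, a call was kept in 405 and lost in 151 of the gene and setting combinations, with no change of sign. The cause of these changes was not tested. Depth limits genes near 0.12 CPM.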

Other observations

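Median levels by chromosome were compared with the median of all autosomes in each library. The largest departures on an autosome were on chromosome 8, at -0.18 (log2) in *Tet1*-/- 2.3, -0.10 in WT O4.2, and 0.09 in both *Tet1*-/- 2.1 and WT O4.1. The 26 called lower genes with an upstream sequence had a median of 10 CpGs in their 250 bases, the 24 called higher genes had 19.5, and all tested genes had 16. ACGTG was in 46.2% of the former, 8.33% of the latter and 22% of all tested genes with a sequence. These are descriptions with no test.

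Other lists gave few members that passed. *Smad6*, an inhibitor of BMP signalling, rose (log2 0.90, edgeR adjusted p = 0.0426), as did *Dusp6*, a feedback phosphatase of FGF signalling (0.42), *Cyr61* (0.86) and *Itga5* (0.44) of cell adhesion, the RNA sensor *Ddx58* (0.58) and *Gadd45a* (0.69). *Pycr1*, of proline synthesis, fell (-0.63, edgeR adjusted p = 0.043).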
